A study of Mus musculus with 6 samples.

Results

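The collagen chains other than type IV were examined here in cultured mouse heart cells with and without exposure to 5-azacytidine. The members were the protein-coding genes whose symbol has the form of a collagen chain, leaving out the type IV chains of basement membranes. This rule took 38 of the 54532 genes in the deposited table. By class they were 11 fibrillar chains, 9 FACIT chains (fibril-associated collagens with interrupted helices), 3 short-chain network chains and 15 others.

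The cells were immortalized cardiosphere-derived cells, a C57BL/6 mouse line that carries a lentiviral human telomerase (hTERT) transgene under puromycin selection and was grown from epicardium of the heart ventricle. Cardiosphere-derived cells are stromal cells that come out of heart tissue in culture. Both groups were at passage 30 and carried the same transgene, and each group had 3 libraries. The control libraries were labelled as the line itself. The induced libraries came from cells given 10 µM 5-azacytidine, an inhibitor of DNA methylation, for 3 days and then kept in IMDM with 2% FBS for 4 weeks, while the methods of the study give another basal medium and a shorter time. No group had the later culture without the drug, so drug, medium, serum and time in culture cannot be told apart. The labels name 3 separate RNA samples per group but do not say that they came from separate cultures or inductions, so p-values measure the spread between these samples, which may be technical.

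Collagen chains wind around each other in trimers. The fibrillar types I, III and V build the banded fibres that give the heart wall its tensile strength, FACIT chains sit on the surface of those fibres, and type VIII and type X chains form sheet-like nets. Type VI forms beaded filaments close to cells, types XV and XVIII sit beside basement membranes, and a further group spans the cell membrane. Cardiac stromal and epicardial cells are known as the main makers of fibrillar collagen in the heart. Since a trimer can need chains of different genes, the chains of one type are described together.

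Reads assigned to genes numbered 19041133 to 19823369 per library, and a gene without a read in one of them could still be present at a CPM (its reads scaled to the library total) of 0.151 to 0.158 or below. That limit takes 3 reads as the bound and covers counting error only. All CPM values other than this limit are scaled with TMM, a factor that evens out library composition. Levels per length are TMM-scaled CPM divided by the kilobases of exon in the deposited table. In bulk RNA, fewer cells of a type and less RNA per cell cannot be told apart.

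Collagen RNA made up a slightly larger share of the reads in the induced libraries, and the chains moved in both directions. The 38 chains took 2.32, 2.22 and 2.29% of all reads in the control libraries and 2.61, 2.62 and 2.45% in the induced ones. All 3 induced libraries were above all 3 control libraries, with a difference of 0.285 percentage points (2.28% ± 0.0545 against 2.56% ± 0.0945, SD, n = 3 each). A two-sided exact permutation test gave p = 0.1, the smallest p that groups of 3 allow. Col1a1, Col1a2 and Col3a1 together took 1.88% of control reads and 2.07% of induced reads, and the other chains 0.401% and 0.492%.

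Of the 38 chains, 26 had enough reads to be tested, and 13 were higher and 11 lower in induced cells at an adjusted p under 0.05 (edgeR's quasi-likelihood test, Benjamini-Hochberg adjustment over all genes tested). These counts were 50% and 42.3% of the tested chains, while over all 14246 genes tested 32.6% were called higher and 32.2% lower, 64.8% in all. A change of at least 2-fold was called for 11 chains, 8 higher and 3 lower, or 42.3% of those tested against 17.1% of all genes. The CPM of the groups did not overlap for 24 of the 26 chains, against 68.6% of all genes. The median log2 fold change was 0.15 over the tested chains and -0.01 over all genes tested. Of the 26 tested chains, 18 had enough reads for the test in every library of both groups, 5 in the induced group only and 2 in the control group only, and the remaining one, Col6a4, was close to the minimum in both. Chains that pass the minimum in one group only had to differ, so the counts over tested chains are a description and no support for a change of the family. All of these chains were among those called at least 2-fold.

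The most abundant chains were fibrillar or of type VI. In control cells Col1a1 was highest at 1132 ± 25.8 (SD, n = 3), followed by Col1a2 at 618 ± 18.4, Col3a1 at 347 ± 17.1, Col6a1 at 235 ± 3.66 and Col5a2 at 150.1 ± 2.47. In induced cells the leading chains kept that order, with Col1a1 at 881 ± 43.2, Col1a2 at 775 ± 34.1 and Col3a1 at 565 ± 12.2. Col5a2, at 236 ± 5.78, and Col6a1, at 231 ± 13.5, then differed by less than their spread. The lengths used are the union of all annotated exons, so a gene with long rare transcripts, such as Col1a2, appears lower than it would by its main transcript.

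**Figure D1:**
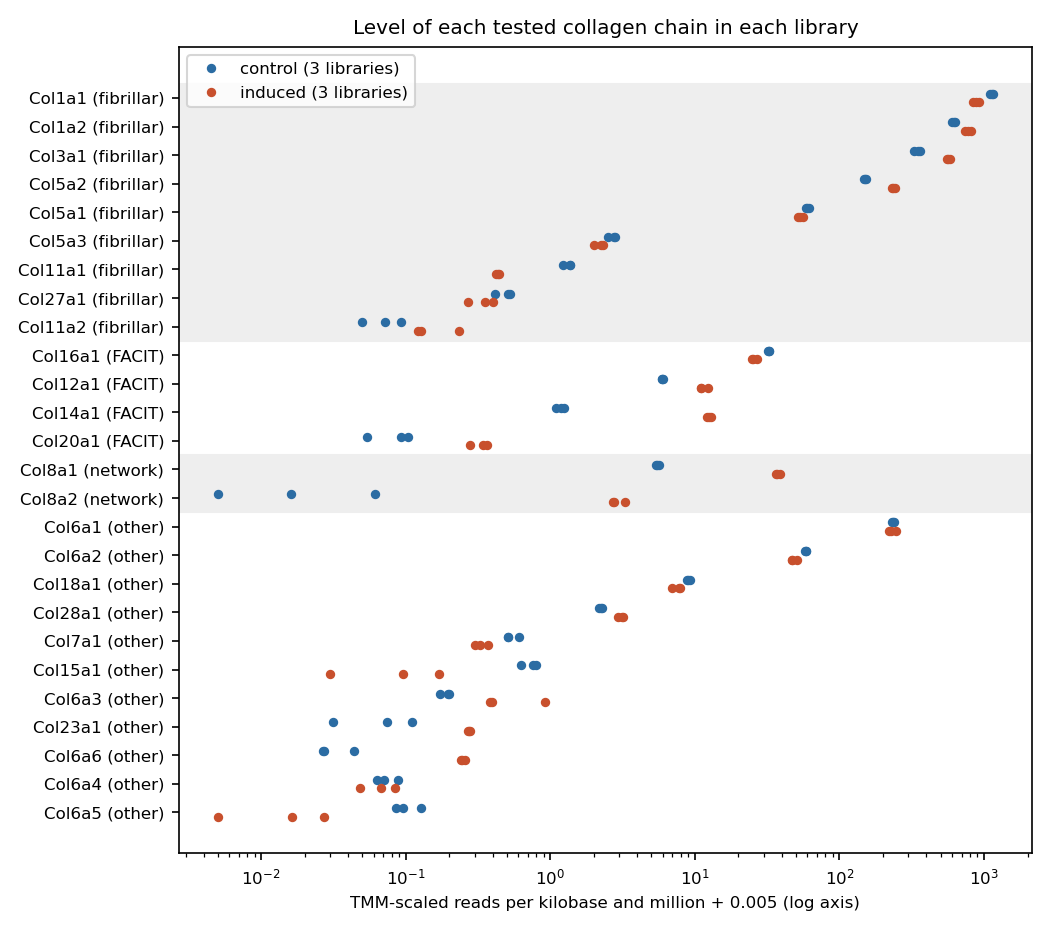
Level of each of the 26 tested chains in each of the 6 libraries, as TMM-scaled CPM per kilobase with 0.005 added, on a log axis, with 1 line per chain grouped by class. Blue and orange points are the 3 control and the 3 induced libraries, and for all chains but Col6a1 and Col6a4 the colours do not overlap.

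Type I collagen is the main fibre of scar, tendon and bone, and its trimer usually holds more alpha 1 than alpha 2 chains. The chains of type I moved in opposite directions. Col1a1 was at 7598, 7259 and 7440 CPM in control libraries and at 6047, 5812 and 5482 CPM in induced libraries. It fell by 0.36 on the log2 scale (SE 0.04, edgeR adjusted p = 2.57e-07), and every induced library was below every control library. Col1a2 was at 7755, 7418 and 7853 CPM in control and at 10021, 9693 and 9180 CPM in induced libraries. Its log2 fold change was 0.33 (SE 0.04, adjusted p = 7.52e-07), with every induced library above the controls.

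Since the ratio of 2 chains in a library does not depend on how libraries are scaled, the partner chains were also set against each other. The Col1a1 to Col1a2 ratio of levels per length was 1.85, 1.85 and 1.79 in control libraries and 1.14, 1.14 and 1.13 in induced libraries. It fell by 0.69 on the log2 scale without overlap of the groups. Its absolute size depends on the exon lengths used, 6563 bases for Col1a1 and 12426 for Col1a2, but its change does not. Of 9 ratios planned, 8 could be given, and 7 of these had groups that did not overlap. Each of the 7 reached p = 0.1 in the exact permutation test, the smallest possible, or 0.114 after Benjamini-Hochberg adjustment over the 8 ratios, so none could pass 0.05 in this design.

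Type III collagen, which mixes with type I in pliable tissues such as vessel walls and skin, rose. Col3a1 was at 3554, 3226 and 3449 CPM in control and at 5498, 5683 and 5460 CPM in induced libraries. The log2 fold change of Col3a1 was 0.70 (SE 0.04, adjusted p = 3.52e-11). Against Col1a1, its level per length went from 0.307 ± 0.00831 to 0.643 ± 0.0306 (SD, n = 3), a log2 difference of 1.07. The type III to type I alpha 1 ratio was thus higher in all 3 induced libraries than in any control library.

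Type V collagen is a minor component that starts fibrils and limits their width, and its alpha 2 chain went the other way from alpha 1 and alpha 3. Col5a2 was at 1454, 1412 and 1452 CPM in control and at 2243, 2324 and 2218 CPM in induced libraries, a log2 fold change of 0.65 (SE 0.04, adjusted p = 5.18e-11). Col5a1 was at 498 to 522 CPM in control and at 439 to 477 CPM in induced libraries, and fell by 0.16 on the log2 scale (SE 0.05, adjusted p = 0.00481). Col5a3, a less abundant chain, was at 17.2 to 19.1 CPM in control and at 13.7 to 15.7 CPM in induced libraries (log2 fold change -0.30, SE 0.09, adjusted p = 0.00692). The Col5a2 to Col5a1 ratio rose from 2.50 ± 0.0275 to 4.39 ± 0.204 (log2 difference 0.81) without overlap. The Col5a3 to Col5a1 ratio overlapped between the groups (0.0449 ± 0.00334 and 0.0407 ± 0.00167, exact permutation p = 0.2, adjusted 0.2), and Col5a1 against Col1a1 went from 0.0530 to 0.0611.

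The chains that rose in type III and type V lie side by side. Col3a1 and Col5a2 are neighbours on chromosome 1 (GRCm38, Col3a1 at 45311538 to 45349706 on the plus strand and Col5a2 at 45374321 to 45503282 on the minus strand), with their 3′ ends 24.6 kb apart. Their log2 fold changes were 0.70 and 0.65, and the difference between these was not tested.

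Chains best known from cartilage were scarce, and among the fibrillar class they held the largest changes. Col11a1, a type XI chain that can pair with type V chains outside cartilage, was at 17.5, 15.6 and 17.4 CPM in control and at 5.31, 5.52 and 5.55 CPM in induced libraries. It fell by 1.62 on the log2 scale (SE 0.11, adjusted p = 2.34e-10), the largest fall of a fibrillar chain. Its partner Col11a2 had 9, 6 and 12 reads in control and 15, 16 and 30 reads in induced libraries. The log2 fold change of Col11a2 was 1.22 (SE 0.41, adjusted p = 0.0136), and it rests on few reads: adjusted p was 0.0688 without control library 2 and 0.118 without induced library 3. Col27a1, a fibrillar chain of cartilage and developing tissues, fell by 0.52 on the log2 scale (5.37 to 6.82 CPM in control, 3.47 to 5.15 CPM in induced, SE 0.17, adjusted p = 0.0115). That call was also lost without control library 2 (adjusted p = 0.0515) and without induced library 2 (0.0544).

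Col2a1, the main fibrillar chain of cartilage, had no read in control libraries and 4 in the induced ones, and Col24a1 had 0 and 2. Of 5 chondrocyte markers, Sox9, a transcription factor that drives cartilage collagen genes, fell by 2.24 on the log2 scale (adjusted p = 1.22e-10). The summed level of that list was 16.6 to 17.5 CPM in control and 2.93 to 4.99 CPM in induced libraries. Nearly all of that sum was Sox9, at 16.7 CPM in control and 3.55 CPM in induced libraries. Matn1 had 0 reads everywhere and Acan, the main cartilage proteoglycan, had 1 read in each group. Comp had 5 reads in control and 13 in induced libraries, and Matn3 had 15 and 7. Of 5 osteoblast markers, Runx2 and Alpl fell (log2 fold changes -1.07 and -1.30) and Ibsp was at 0 reads. Sp7 had 33 reads in control and 4 in induced libraries, and Bglap had 0 and 3. The summed level of the osteoblast list was 40.4 to 45.3 CPM in control and 17.3 to 20.2 CPM in induced libraries. Whether these markers have a part in the changes of Col11a1 or Col1a1 was not tested.

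Among the FACIT chains, 3 of the 4 tested rose and 1 fell. Col14a1, which coats type I fibrils and limits their fusion, had the largest change. It was at 8.71, 8.30 and 7.66 CPM in control and at 90.9, 85.3 and 87.2 CPM in induced libraries. This is a 10.7-fold rise (log2 fold change 3.42, SE 0.07, adjusted p = 1.42e-17), far outside the spread of either group. Col14a1 lies on chromosome 15, where the 561 genes tested had a median log2 fold change of -0.24, with 115 called higher and 288 lower, so its rise runs against the shift of its chromosome.

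Col12a1, the closest relative of Col14a1 and a chain of stretched tissues, was at 90.6, 91.4 and 90.03 CPM in control and at 166.9, 186 and 168.1 CPM in induced libraries. Its log2 fold change was 0.94 (SE 0.05, adjusted p = 2.76e-11). The ratio of Col14a1 to Col12a1 went from 0.197 ± 0.0120 in control to 1.10 ± 0.0963 in induced libraries (log2 difference 2.48), so the level per length of Col14a1 changed from below that of Col12a1 to about its level. Col16a1, a FACIT chain of fibroblasts and smooth muscle, was at 217, 220.5 and 220.04 CPM in control and at 182.7, 166.5 and 171.7 CPM in induced libraries, and fell by 0.34 on the log2 scale (SE 0.05, adjusted p = 8.09e-06). Col20a1 had 5, 10 and 9 reads in control and 35, 33 and 27 reads in induced libraries (log2 fold change 2.03, SE 0.35, adjusted p = 5.63e-05).

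The other 5 FACIT chains were not tested. The type IX chains of cartilage fibrils had 0 and 2 reads (Col9a1, control and induced), 2 and 4 (Col9a2) and 14 and 34 (Col9a3). Col19a1 had 1 read in each group, and Col22a1 had 1 in control and 6 in induced libraries. With the read filter left out, Col9a3 had an adjusted p of 0.058. With the filter kept, leaving out control library 2 or induced library 2 gave 4 FACIT chains called higher in place of 3. A FACIT chain untested in the main fit was thus called in those settings. Up to 6.07% of the exon bases of Col9a3 are shared with Tcfl5 on the genome, and strand use in counting is not given in the sources used here.

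Type VIII collagen, a short-chain network of vessel walls and of the membrane under the corneal endothelium, rose in both of its tested chains, and Col8a2 had the largest rise of the family. Col8a1 was at 43.0, 41.9 and 44.0 CPM in control and at 290.05, 306 and 286 CPM in induced libraries, a 6.84-fold rise (log2 fold change 2.77, SE 0.05, adjusted p = 1.01e-17). Col8a2 had 0, 5 and 1 reads in the control libraries and 276, 230 and 235 reads in the induced ones. Its fitted log2 fold change was 6.92 (SE 0.32, adjusted p = 1.07e-12), and the fitted size depends on the few control reads, reaching 8.68 without control library 2. With each library left out in turn, the lowest value was 6.37. In induced cells the levels per length were 37.5 ± 1.31 for Col8a1 and 2.90 ± 0.317 for Col8a2, so Col8a1 stayed the more abundant of the pair. Col10a1, the network chain of hypertrophic cartilage, had 1 read in control and 2 in induced libraries.

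The promoters of this pair are shown because both chains rose and the treatment used an inhibitor of methylation at CG dinucleotides. The sequences come from RefSeq for GRCm38.p6, run 5′ to 3′ along the strand of the gene up to its start, and have each CG in capitals, with Col8a1 at chr16:57754738-57754987 on the minus strand and Col8a2 at chr4:126286544-126286792 on the plus strand.
Col8a1: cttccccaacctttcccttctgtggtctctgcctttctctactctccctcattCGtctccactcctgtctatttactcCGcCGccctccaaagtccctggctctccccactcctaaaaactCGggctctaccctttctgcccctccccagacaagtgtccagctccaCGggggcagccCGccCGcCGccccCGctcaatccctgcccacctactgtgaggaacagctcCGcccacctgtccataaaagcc
Col8a2: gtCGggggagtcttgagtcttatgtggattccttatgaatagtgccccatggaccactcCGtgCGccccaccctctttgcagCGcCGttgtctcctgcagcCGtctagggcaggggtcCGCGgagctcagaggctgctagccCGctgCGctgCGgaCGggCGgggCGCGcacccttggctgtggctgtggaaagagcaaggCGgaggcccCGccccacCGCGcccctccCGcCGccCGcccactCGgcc
In the window from 250 bases before to 50 after the start, Col8a2 held 32 CG and Col8a1 12. Of 32851 RefSeq promoter windows, 9.52% held at least as many as Col8a2 and 39.6% at least as many as Col8a1. Methylation was not measured, and a count of CG says nothing of its state in these cells.

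Promoter windows were found for 30 of the 38 chains. The median number of CG was 12.5 (range 0 to 32) over 10 chains called higher and 16 (8 to 34) over 10 called lower. Where a gene had several windows, the one with the most CG was taken. The median of all windows, each counted singly, was 7, so it is not a like measure. The ranges of the chains that rose and fell overlapped over most of their width. Searching both strands, TATAAA stood in a window of 5 of the 30 chains and CCAAT in a window of 10. Of all windows counted singly, 13.6% and 37.4% held them, while a chain counted if any of its windows did.

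**Figure D2:**
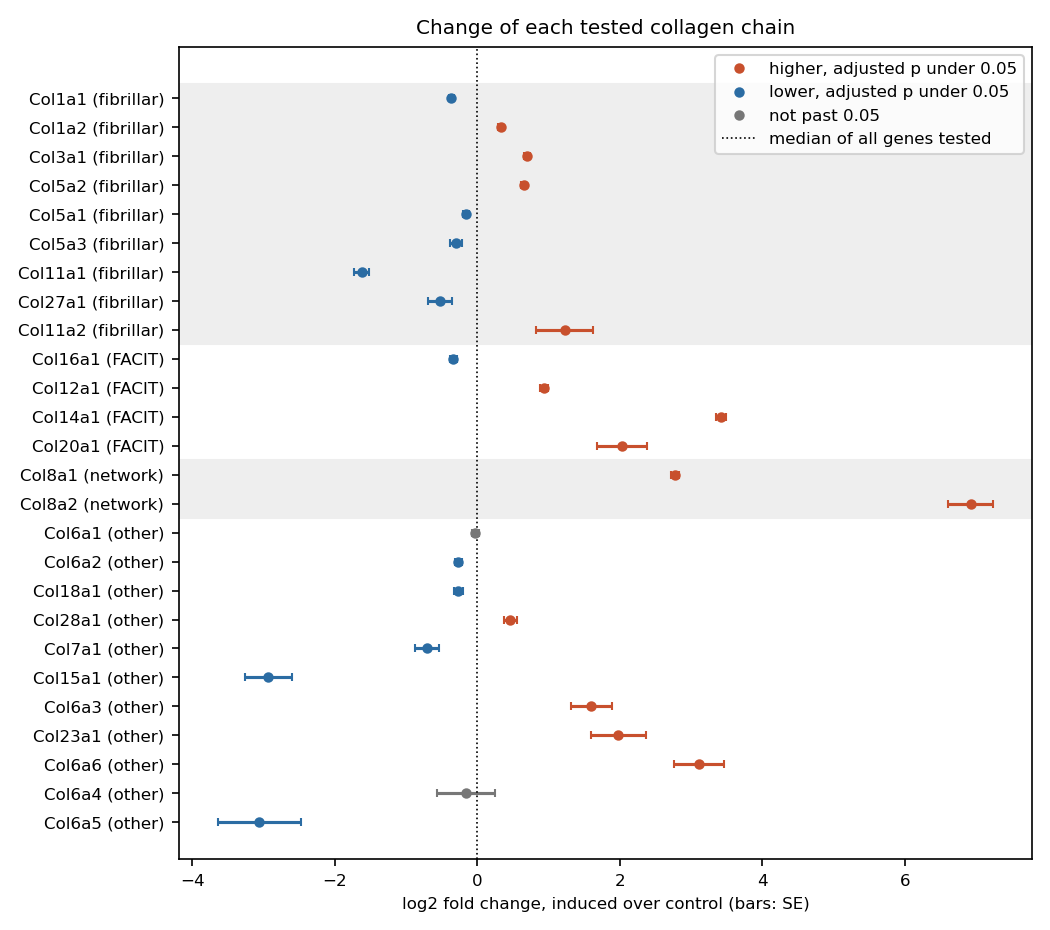
Log2 fold change of each of the 26 tested chains, induced over control, with its standard error as a bar, grouped by class. Orange points rose, blue points fell, the 2 grey points did not pass 0.05, and the dotted line is the median of all genes tested at -0.01. Col8a2 at 6.92 and Col14a1 at 3.42 lie farthest to the right.

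Type VI collagen forms beaded filaments from alpha 1, alpha 2 and one further chain, which is usually alpha 3 and can be alpha 4, 5 or 6. The common chains changed little. Col6a1 was at 1013, 1032 and 1045 CPM in control and at 1079, 989.5 and 967 CPM in induced libraries. Its log2 fold change was -0.03 (SE 0.05, adjusted p = 0.642), and the groups overlapped. Col6a2 was at 478, 488 and 487 CPM in control and at 426, 392 and 392 CPM in induced libraries, and fell by 0.26 on the log2 scale (SE 0.05, adjusted p = 5.95e-05). The Col6a1 to Col6a2 ratio was 4.04 ± 0.0319 and 4.77 ± 0.0642, without overlap.

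The chains that can take that further place were far scarcer than Col6a1 and differed in direction. Col6a3 had 46, 45 and 40 reads in control and 88, 207 and 86 reads in induced libraries, listed here by library because induced library 2 stood apart, which was noticed after its values were seen. The log2 fold change of Col6a3 was 1.60 (SE 0.29, adjusted p = 9.13e-05), and 1.06 without induced library 2 (adjusted p = 6.82e-05). Its level per length was 0.184 ± 0.0150 in control and 0.559 ± 0.304 in induced cells, beside 235 and 231 for Col6a1. Even in the induced library with the most Col6a3, its level was 0.00402 of that of Col6a1.

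Col6a4, Col6a5 and Col6a6 stand in a row on the minus strand of chromosome 9, with gaps of 28.8 and 27.9 kb, and 2 of them moved in opposite directions. Col6a5 had 17, 15 and 23 reads in control and 2, 0 and 4 reads in induced libraries (log2 fold change -3.06, SE 0.58, adjusted p = 1.54e-04). With each library left out in turn, the log2 fold change of Col6a5 ran from -3.97 to -2.50. Col6a6 had 4, 7 and 4 reads in control and 41, 42 and 44 reads in induced libraries (log2 fold change 3.11, SE 0.35, adjusted p = 3.49e-07). Every control library had a higher level per length of Col6a5 than of Col6a6, and every induced library a higher one of Col6a6. Col6a4 had 10 to 14 reads in control and 7 to 13 in induced libraries, with overlap (log2 fold change -0.16, SE 0.41, adjusted p = 0.746).

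The promoter sequences of Col6a5, at chr9:105960644-105960893, and Col6a6, at chr9:105828161-105828335, both on the minus strand of chromosome 9 of GRCm38.p6, are shown because these neighbours moved apart. Each CG is in capitals, and the Col6a6 run ends 75 bases before the RefSeq start, where the gene begins in the deposited table.
Col6a5: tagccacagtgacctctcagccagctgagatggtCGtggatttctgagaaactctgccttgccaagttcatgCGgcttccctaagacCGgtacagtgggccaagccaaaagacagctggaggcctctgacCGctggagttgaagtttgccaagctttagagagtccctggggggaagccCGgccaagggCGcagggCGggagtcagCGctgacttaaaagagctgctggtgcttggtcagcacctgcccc
Col6a6: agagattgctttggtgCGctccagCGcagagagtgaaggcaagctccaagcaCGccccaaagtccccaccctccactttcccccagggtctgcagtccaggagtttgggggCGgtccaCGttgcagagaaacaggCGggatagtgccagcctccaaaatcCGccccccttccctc
In the full window around the RefSeq start, Col6a5 held 10 CG and Col6a6 14, and 43.5% and 36.3% of all windows held at least as many. The windows of this pair thus differed by few CG.

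**Figure D3:**
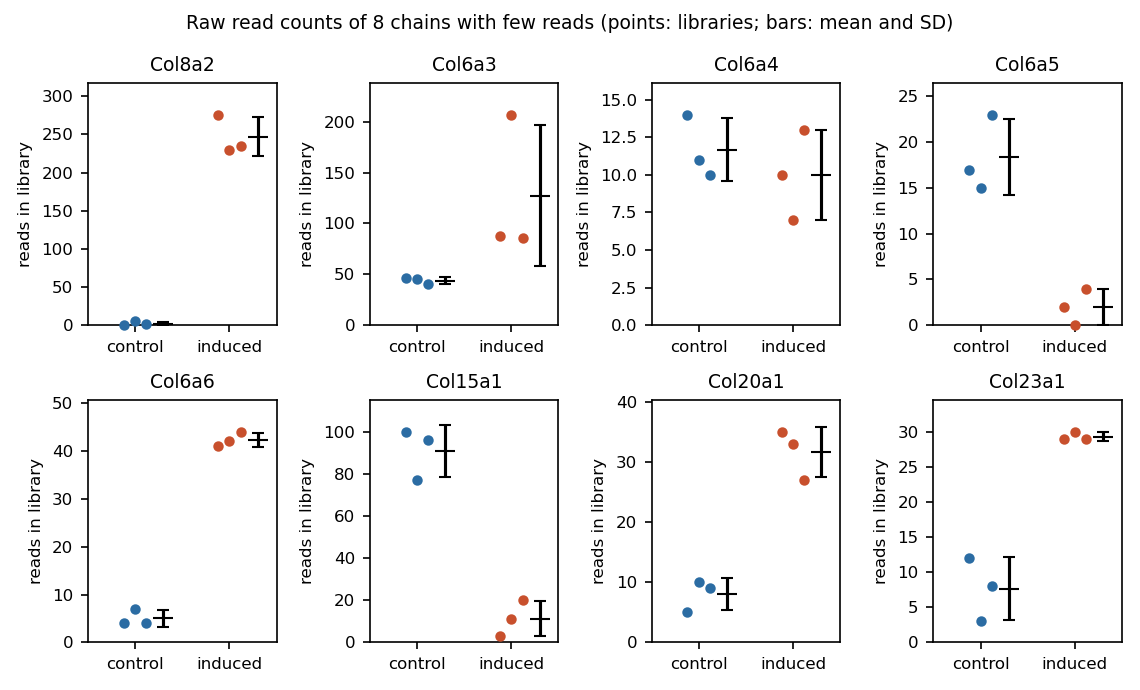
Raw reads per library for 8 chains with few reads, each panel with its own axis from 0, with blue control and orange induced points and the mean and SD of each group (n = 3) in black. Col6a5 and Col15a1 fell, Col6a4 overlapped, the other 5 rose, and the induced library with 207 reads stands apart in Col6a3.

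Col15a1, Col18a1 and Col7a1, chains found next to basement membranes, were all called lower, beside 32.2% of all genes tested. This grouping was not one of the classes compared. Col15a1 passed the read minimum in the control group only, so its call was favoured by that filter. Col15a1, a multiplexin chain of muscle and vessel basement membrane zones, had 100, 77 and 96 reads in control and 3, 11 and 20 reads in induced libraries. It fell by 2.93 on the log2 scale (SE 0.33, adjusted p = 3.41e-07). With each library left out in turn, its log2 fold change ran from -3.61 to -2.49. Col18a1, the other multiplexin and the source of the fragment endostatin, was at 65.4, 62.3 and 63.3 CPM in control and at 55.0, 49.1 and 54.9 CPM in induced libraries. Col18a1 fell by 0.26 on the log2 scale (SE 0.06, adjusted p = 5.75e-04). Col7a1, the chain of anchoring fibrils under epithelia, was at 5.16 to 6.16 CPM in control and at 3.03 to 3.78 CPM in induced libraries (log2 fold change -0.71, SE 0.16, adjusted p = 0.00103).

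The membrane-spanning chains had few reads. Col23a1 had 12, 3 and 8 reads in control and 29, 30 and 29 reads in induced libraries (log2 fold change 1.98, SE 0.38, adjusted p = 1.91e-04). Col13a1, a chain of cell contacts, had 2, 1 and 0 reads in control and 9, 1 and 16 reads in induced libraries. It was below the read filter, and without the filter its adjusted p was 0.00192, with overlapping groups and 1 induced library at the level of the controls. Col17a1, a hemidesmosome chain of epithelia, had 4, 4 and 3 reads in control and 1, 1 and 0 in induced libraries, with an adjusted p of 0.163 without the filter.

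Col25a1 had no read in any library, a limit of 0.151 to 0.158 CPM each, and Col26a1 had 1 read in control and 3 in induced libraries. Col28a1, a chain with von Willebrand domains related to type VI, was at 11.2, 10.9 and 10.7 CPM in control and at 15.7, 15.3 and 14.3 CPM in induced libraries. Its rise was small and did not overlap (log2 fold change 0.47, SE 0.09, adjusted p = 2.74e-04). Of the 12 chains not tested, 9 had at most 10 reads over all 6 libraries, and Col13a1 was the one with an adjusted p under 0.05 when the filter was left out.

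By class, 4 fibrillar chains were called higher and 5 lower of 9 tested, with a median log2 fold change of -0.16. The FACIT chains had 3 higher and 1 lower of 4 (median 1.48), the network chains both higher (median 4.85), and the other chains 4 higher, 5 lower and 2 without a call of 11 (median -0.16). Over all genes tested the shares were 32.6% higher and 32.2% lower, and the difference between classes was not tested. With so few chains per class the medians are set by single chains. Col11a2, Col20a1, Col8a2, Col6a6 and Col23a1 passed the read minimum in the induced group only, and Col6a5 and Col15a1 in the control group only. Their calls were favoured by that filter, so the class counts and medians are a description. Without the read filter the median was 0.33 for the fibrillar chains, so its sign depends on chains with almost no reads.

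**Figure D4:**
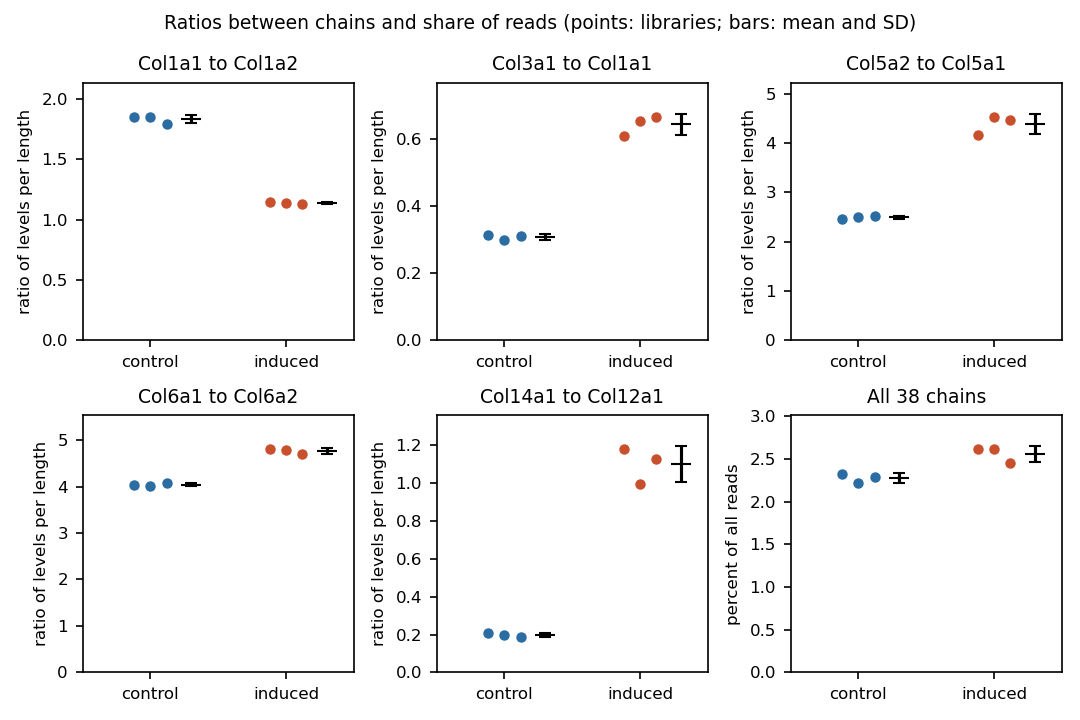
Ratio of the levels per length of 5 pairs of chains in each library, and in the last panel the percent of all reads taken by the 38 chains, on axes from 0. Blue and orange points are control and induced libraries, and black marks are the mean and SD (n = 3). The Col1a1 to Col1a2 ratio is lower and the other 4 ratios are higher in every induced library.

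A procollagen chain is hydroxylated and folded in the endoplasmic reticulum, exported, trimmed of its end propeptides, cross-linked outside the cell, bound by receptors and in time cut and taken up. Genes for these steps were listed, and 51 of the 52 were found as protein-coding genes in the table. Of the 44 tested, 22 were higher and 15 lower, beside 32.6% higher and 32.2% lower over all genes tested, so the count of lower genes was near the general share. The counts of each step are a description to be read beside the same shares, and the difference between steps was not tested. Values are given for the 4 genes of each step with the smallest p.

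For modification and folding, 9 of 16 tested genes rose, 4 fell and 3 had no call (median log2 fold change 0.25). P4hb, the beta subunit of prolyl 4-hydroxylase, was at 1816 ± 3.84 CPM in control and 2845 ± 35.1 CPM in induced libraries (SD, n = 3), a log2 fold change of 0.65 (adjusted p = 2.52e-11). Plod2 and Plod1, lysyl hydroxylases that prepare chains for cross-linking, rose by log2 fold changes of 1.09 and 0.91 (adjusted p = 1.34e-12 and 8.62e-11). P4ha3, one of the catalytic subunits of prolyl 4-hydroxylase, fell from 91.7 ± 3.85 to 21.8 ± 1.33 CPM (log2 fold change -2.07, adjusted p = 2.60e-15). The other catalytic subunits, P4ha1 and P4ha2, named here after their values were seen, were more abundant and rose. P4ha1 went from 362 ± 13.7 to 593 ± 9.64 CPM and P4ha2 from 142 ± 6.48 to 165 ± 3.68 CPM (log2 fold changes 0.71 and 0.22, edgeR adjusted p = 9.63e-11 and 0.00106).

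For secretion and propeptide removal, 1 of 11 tested genes rose, 8 fell and 2 had no call (median log2 fold change -0.76). Pcolce and Pcolce2, which speed up removal of the C-terminal propeptide, fell from 615 ± 8.62 to 364 ± 13.5 CPM and from 52.5 ± 2.38 to 6.64 ± 0.471 CPM (log2 fold changes -0.76 and -2.98, adjusted p = 3.68e-11 and 9.39e-16). Adamts14, a protease for N-terminal propeptides, had a log2 fold change of -1.45 (adjusted p = 3.94e-10). Creb3l1, a transcription factor of the secretory pathway that acts on type I collagen genes, had one of -0.88 (adjusted p = 6.93e-11). The gene that rose was Adamts2, named here after its values were seen. It is also a protease for N-terminal propeptides and went from 394 ± 16.7 to 557 ± 12.3 CPM (log2 fold change 0.50, adjusted p = 1.96e-08). Bmp1, Tll1 and Adamts3, also genes of propeptide removal and named after their values were seen, fell. Their log2 fold changes were -0.62, -4.52 and -1.57 (edgeR adjusted p = 1.39e-09, 2.56e-08 and 0.00201). Tll1 had few reads, 176 in control and 7 in induced libraries. Adamts2 was thus the only tested gene of propeptide removal that rose.

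The cross-linking enzymes were mixed, with 2 of 5 higher and 2 lower (median log2 fold change -0.11). Loxl2 rose from 154 ± 5.90 to 335 ± 10.2 CPM (log2 fold change 1.12, adjusted p = 4.60e-13) and Loxl1 had a log2 fold change of 0.30 (adjusted p = 1.07e-05). Loxl4 and Lox had log2 fold changes of -0.95 and -0.13 (adjusted p = 4.65e-10 and 0.0240). Lox, the founding member of the family, was at 2943 ± 60.1 and 2683 ± 222 CPM, and its groups overlapped.

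Of the receptors and uptake genes, 5 of 7 tested rose and 1 fell (median log2 fold change 0.46), and the platelet and leukocyte receptors Gp6 and Lair1 had no read. Mrc2, an endocytic receptor that takes up cut collagen, rose from 369 ± 3.37 to 998 ± 44.6 CPM (log2 fold change 1.44, adjusted p = 4.58e-15). Itga1, the alpha subunit of a collagen-binding integrin, its partner Itgb1 and Ddr1, a collagen-binding kinase receptor, had log2 fold changes of 1.51, 0.45 and 0.89 (adjusted p = 2.59e-11, 3.52e-08 and 5.97e-12). All 5 breakdown genes tested were higher (median log2 fold change 0.76). Ctsk, a lysosomal protease that cuts collagen, rose from 32.4 ± 2.93 to 84.9 ± 5.50 CPM (log2 fold change 1.39, adjusted p = 2.86e-12). The collagenases Mmp13, Mmp14 and Mmp8 had log2 fold changes of 1.02, 0.41 and 0.76 (adjusted p = 1.09e-09, 7.27e-08 and 4.67e-05).

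**Figure D5:**
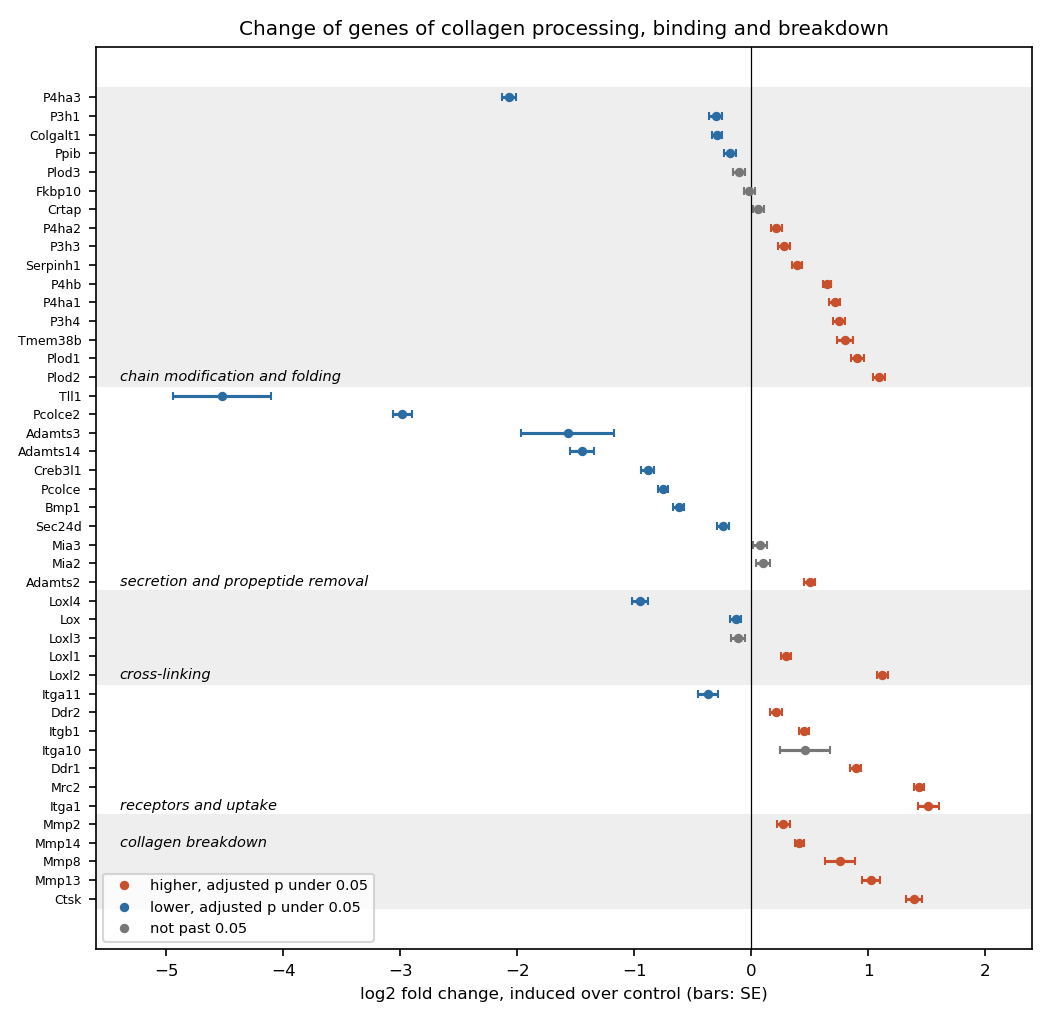
Log2 fold change of the 44 tested genes of collagen processing, binding and breakdown, induced over control, with standard errors as bars, grouped by step. Orange points rose, blue points fell and grey points did not pass 0.05. Secretion and propeptide removal holds 8 blue points of 11, and breakdown holds 5 orange points of 5.

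Markers of cell types moved between the groups as well, and their counts are to be read beside 32.6% higher and 32.2% lower over all genes tested. All 7 markers of cardiosphere and epicardial cells were expressed, 5 higher and 2 lower in induced cells, and their summed level was 851 to 862 CPM in control and 1583 to 1737 CPM in induced libraries. Most of the rise in that sum was Upk3b (254 CPM in control, 941 CPM in induced), while Tbx18 and Ly6a fell. Of 6 fibroblast markers, Dcn, Lum and Postn were higher and Pdgfra, Pdgfrb and Fap lower, with sums of 984 to 1042 and 2579 to 2751 CPM. Lum and Dcn are small proteoglycans that bind collagen fibrils, and they had log2 fold changes of 4.37 and 2.19. Dcn, at 468 CPM in control and 2136 CPM in induced libraries, made up most of the rise in the fibroblast sum. The 5 smooth muscle markers summed to 922 to 979 CPM in control and 469 to 528 CPM in induced libraries. Nearly all of that sum was Acta2, at 944 CPM in control and 489 CPM in induced libraries. Acta2 and Cnn1 were lower, Myh11 and Des higher (log2 fold changes 2.79 and 4.36), and Tagln had no call. Of 6 cardiomyocyte markers only Tnnt2 had enough reads to be tested, and it was higher, with sums of 11.5 to 14.6 and 57.1 to 60.4 CPM. Nearly all of these sums was Tnnt2, at 13.1 CPM in control and 58.1 CPM in induced libraries. In control and induced libraries Myh6 had 0 and 1 reads, Myh7 3 and 4, Nppa 0 and 4, Actn2 0 and 8, and Ryr2 1 and 29.

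Endothelial markers summed to at most 2.30 CPM in any library, with Cdh5 at 1 read in each group, and the 5 leukocyte markers had no read. Of 4 basal epithelial markers, Krt14 and Cdh1 were higher (29 against 693 and 42 against 155 reads), Krt5 had 0 and 1 reads and Trp63 18 and 4, with sums of 0.967 to 2.00 and 12.9 to 18.3 CPM. The part of these marker changes in the collagen values was not tested.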

How the data were processed

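RNA of 3 control and 3 induced samples was sequenced from NEBNext Ultra libraries, and groups were taken from the sample titles. The authors deposited raw read counts per gene (whole numbers), the gene lengths and FPKM values, which were used only to check the scaling, and their own fold changes, p-values and Gene Ontology tables, which were not used. The submitters' processing notes name HISAT2 2.0.5, featureCounts 1.5.0-p3, DESeq2 1.16.1 and the mm10 build. Their settings, strand included, are not given in the sources used here. All 38 chains have the coordinates of GENCODE M21.

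Counts were fitted with edgeR 4.0.16 in R 4.3.3 (TMM, filterByExpr with a minimum count of 10 and a total of 15, quasi-likelihood F test, Benjamini-Hochberg adjustment over all genes tested, threshold 0.05). The steps were first tested on simulated data with 200 changed genes. In the data 9225 of 14246 genes were called, an extent of change that the simulation did not cover. Shares and ratios were compared by two-sided exact permutation tests, and ratios needed at least 10 reads of both chains in every library. Pairs of libraries within a group differed by more than counting noise, so none was merged.

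Every member is named. Values per library are given for the 4 tested chains of each class with the highest level per length and the 4 called chains with the largest log2 fold change, and for pathway genes the 4 with the smallest p per step. Members, classes and lists were chosen with earlier results of these data known. Alternatives were DESeq2 1.42.0, other scalings and filters, a replicate block, a threshold of 0.01 and leaving out each library.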

Additional observations from a re-analysis of the deposited data

How the results depend on the processing

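The alternatives run were DESeq2, median-ratio size factors, scaling by totals alone, TMM without the collagen chains, no read filter, a stricter filter, a replicate block, a threshold of 0.01, and each library left out in turn. None of them turned the direction of a called chain, while the median of the fibrillar chains changed sign without the filter. Over single chains tested in the main fit, 353 of 361 values kept both their direction and their side of the threshold, and 6 lost the call, all of Col11a2 and Col27a1. The other 2, of Col6a1 and Col6a4, changed sign without passing the threshold. Chains that a setting left untested are not among these values. The stricter filter left Col11a2 and a lower chain of the other class untested, so 12 chains were called higher and 10 lower. Medians over classes moved with the chains tested. Without a filter the median log2 fold change was 0.71 over all chains, 0.33 for fibrillar, 1.32 for FACIT and 2.78 for network chains, and with the stricter filter 0.33 over all chains, -0.23 for fibrillar and -0.0227 for the other chains, since a different set of chains was tested. Leaving out 1 library gave medians of 0.11 to 0.35 over all chains, 1.09 to 1.72 for FACIT, 4.57 to 5.72 for network and -0.26 to -0.00386 for the other chains, and 12 to 14 chains called higher and 10 to 11 lower. Scaling by totals alone shifted the log2 fold changes of all genes by a median of -0.04. Same-numbered libraries did not deviate together (correlations -0.03, -0.03 and 0.03), so the numbers do not pair them. With the replicate block 13 chains were higher and 11 lower, and 9063 genes in all were called. Depth limits the chains with few reads, of which 12 could not be tested.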
